A study of Mus musculus with 32 samples.

Results

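Ribosome biogenesis factors are the nucleolar and nuclear proteins that transcribe, modify, cut and fold ribosomal RNA and assemble it with ribosomal proteins. A list of 43 such genes was followed through liver RNA of 32 mice, and 41 of the 43 were measured, among 22180 genes tested. Fibrillarin (Fbl) and Tsr1 had only probe sets shared with a second gene (Tulp4 and Srr) and were left out. Each other gene was read from its brightest probe set, and 5 of the 41 genes had several to choose from.

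RNA polymerase I makes the long ribosomal RNA precursor, small nucleolar RNPs (snoRNPs) guide its modification, and separate sets of factors build the small and the large subunit before both leave the nucleus. Ribosome production is costly for a cell, and in liver it is known to respond to feeding and to insulin. In mammalian cells the transcription factor MYC is known to bind the sequence CACGTG, the E-box, near many of these genes.

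Each of the 32 Affymetrix Mouse Gene 2.1 ST arrays held RNA of 1 wild-type, 14-week-old male C57BL/6NTac mouse. After a fast of 10 h each mouse was gavaged with 2 g/kg of palm oil, which is high in saturated fat, or with water, called control here. Of the clamped mice, 9 had palm oil and 7 control. Of the basal mice, 9 had palm oil and 7 control. Basal livers were taken 6 h after the gavage under isoflurane. Clamped mice began a hyperinsulinemic-euglycemic clamp at that time, in which insulin at 15 pmol/kg/min is infused while blood glucose is held steady. They also carried a jugular catheter placed days earlier under ketamine and xylazine, received labelled glucose for 110 min before insulin and a labelled deoxyglucose during it, and were killed with ketamine and xylazine. The clamp, the time since the gavage, the surgery, the tracers and the anaesthetic cannot be told apart.

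Values are log2 expression values, so that a difference of 1 is a 2-fold difference in signal, and values of different genes are not compared. Rose, fell and changed are used of genes with a limma adjusted p under 0.05 over all 22180 genes. Values after ± are standard errors, and intervals are at 95%.

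Some arrays stood apart. Narrower distributions than on all other arrays were seen on 7 basal arrays, 3 palm oil and 4 control, whose animals carry the numbers 44 and up. They are called the 7 late basal arrays after these numbers alone, as no label gives a date or an order of handling. Transcripts of pancreatic acinar cells averaged over 6 log2 units in 12 arrays, of which 2 were palm oil clamped, 1 control clamped, 5 palm oil basal and 4 control basal. Clamped and basal animal numbers do not overlap, so that any order of handling goes with the clamp. Hepatocyte transcripts were high everywhere: albumin (Alb) lay between 10.9 and 11.4. The mean of 10 hepatocyte markers was lower on the 7 late basal arrays, at 9.81 to 9.99. It was 10.04 to 10.26 on the other basal arrays and 10.19 to 10.36 on the clamped arrays.

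Of the 41 factors 14 rose and 2 fell in clamped against basal mice, and 0 changed with palm oil. Of all genes tested, 8.39% rose and 8.46% fell. Among the 11159 genes at least as bright as the dimmest factor (Rrp1b), a comparison added after the data were seen, 1781 (16%) rose and 1671 (15%) fell. The median difference of the 41 factors was 0.18, beside -0.02 over all genes, and 33 of the 41 differences were above 0, against 44.2% of all genes and 51.1% of the 11159 brighter ones. The factors that rose were Nop58, Heatr1, Wdr75, Gnl3, Nop14, Npm1, Rrs1, Nolc1, Ddx21, Noc3l, Polr1c, Wdr43, Nop16 and Nip7, and those that fell were Dkc1 and Nhp2. Fewer cells of a type and less RNA per cell cannot be told apart in such bulk samples.

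**Figure D1:**
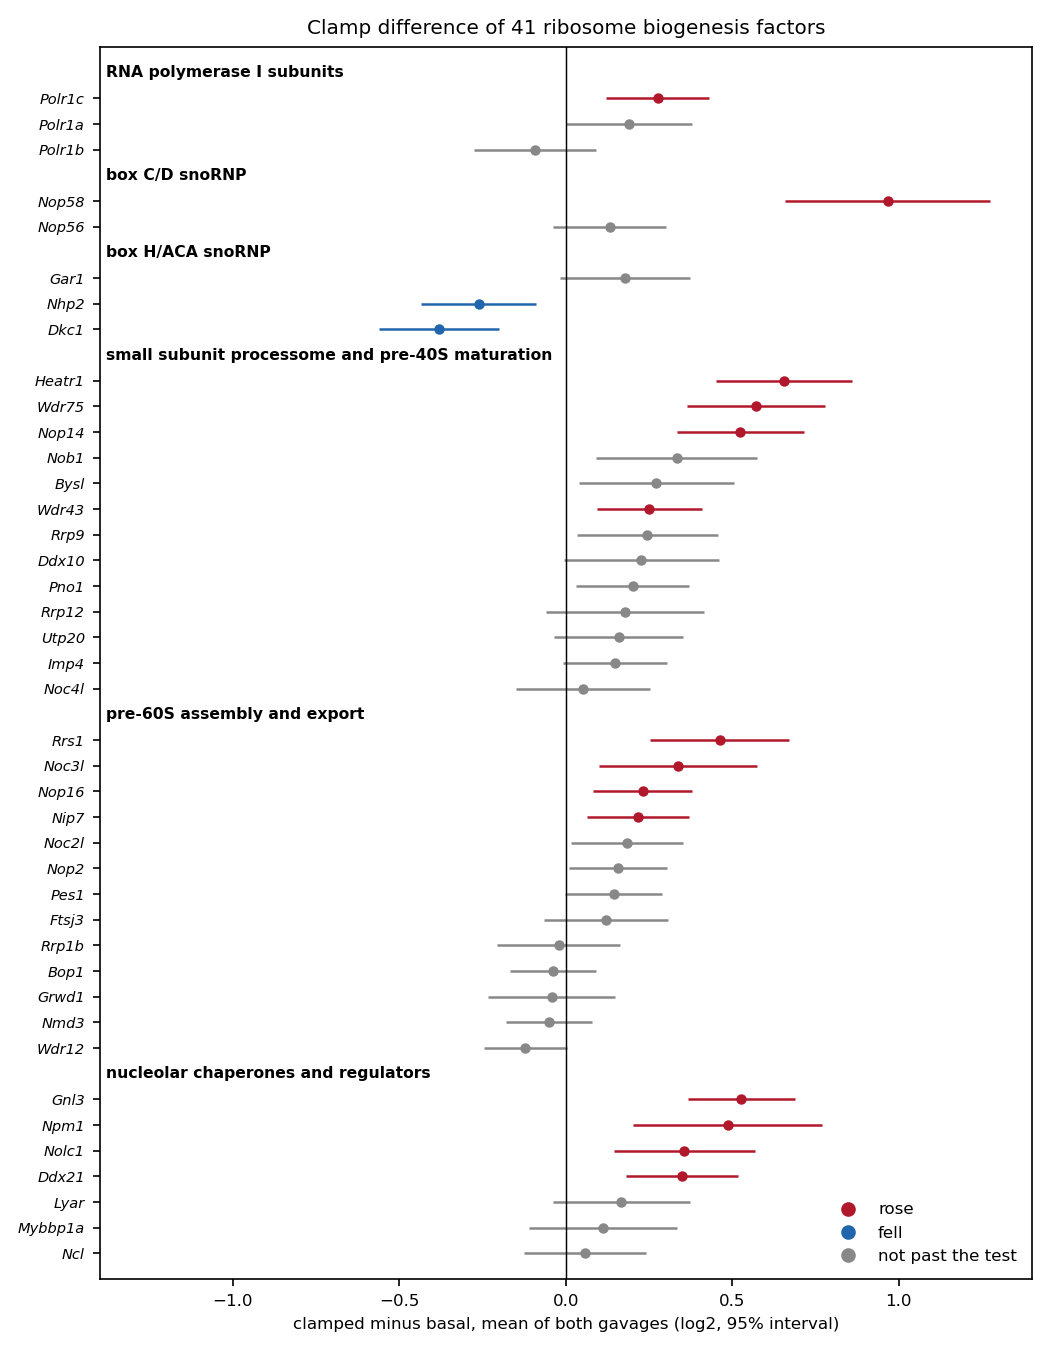
Difference between clamped and basal mice of each of the 41 factors (points, log2, mean of both gavages, 16 against 16 mice) with its 95% interval (bars), grouped by role. The 14 factors that rose are red, the 2 that fell (Dkc1 and Nhp2) are blue, and the differences run between -0.38 and 0.97.

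The promoters of these genes were read first for the E-box, because many such genes are known MYC targets in mammalian cells. RefSeq promoters (GRCm38.p6, 250 bases before to 50 after the start) matched 37 of the 41 factors by symbol. CACGTG, which reads the same on both strands, was present in 9 of the 37 (24.3%), against 9.19% of the 16990 array genes with a promoter entry. The motif was in 16.25% of 80 other ribosome biogenesis factors with an entry. It was present in 1 of the 12 risen factors with an entry (Wdr43), in 8 of the 23 that did not pass the test, and in neither of the factors that fell. In 6 of the 9 genes it lay after the start and in 3 before it. The 9 sites are shown 5′ to 3′ with up to 10 bases on each side and the motif in capitals, so that its flanks can be compared.
Imp4 (chr1:34439698-34439723, plus strand): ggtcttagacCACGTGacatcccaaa
Nmd3 (chr3:69721931-69721956, plus strand): ccccttgctaCACGTGtattctttga
Nop2 (chr6:125131813-125131838, plus strand): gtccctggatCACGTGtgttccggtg
Grwd1 (chr7:45830740-45830765, minus strand): gccggagtcgCACGTGtgaaaccgga
Utp20 (chr10:88826765-88826787, minus strand): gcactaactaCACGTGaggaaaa
Pes1 (chr11:3963967-3963992, plus strand): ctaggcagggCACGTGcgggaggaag
Pno1 (chr11:17211540-17211562, minus strand): tacaaccacgCACGTGttcctct
Mybbp1a (chr11:72441357-72441376, plus strand): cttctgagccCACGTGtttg
Wdr43 (chr17:71616222-71616247, plus strand): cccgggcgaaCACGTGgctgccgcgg

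Wdr43, the risen factor that holds the motif, is shown with its whole promoter, chosen after its value was seen, and Gnl3 and Heatr1 are shown as the factors with the smallest p in the clamp comparison, neither of which holds it. Capitals mark the motif.
Wdr43 (chr17:71615965-71616264, plus strand): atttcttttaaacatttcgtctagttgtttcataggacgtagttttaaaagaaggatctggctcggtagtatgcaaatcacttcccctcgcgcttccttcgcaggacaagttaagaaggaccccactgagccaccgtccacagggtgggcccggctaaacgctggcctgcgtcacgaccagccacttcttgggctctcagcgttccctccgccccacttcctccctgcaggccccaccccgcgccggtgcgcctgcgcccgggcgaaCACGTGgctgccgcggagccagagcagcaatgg
Gnl3 (chr14:31019082-31019381, minus strand): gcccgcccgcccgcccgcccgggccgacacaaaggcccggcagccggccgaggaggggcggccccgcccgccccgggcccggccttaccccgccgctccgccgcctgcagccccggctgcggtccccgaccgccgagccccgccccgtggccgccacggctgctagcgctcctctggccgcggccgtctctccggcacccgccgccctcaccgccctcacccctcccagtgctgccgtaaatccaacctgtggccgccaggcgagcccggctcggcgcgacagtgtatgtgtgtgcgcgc
Heatr1 (chr13:12395125-12395424, plus strand): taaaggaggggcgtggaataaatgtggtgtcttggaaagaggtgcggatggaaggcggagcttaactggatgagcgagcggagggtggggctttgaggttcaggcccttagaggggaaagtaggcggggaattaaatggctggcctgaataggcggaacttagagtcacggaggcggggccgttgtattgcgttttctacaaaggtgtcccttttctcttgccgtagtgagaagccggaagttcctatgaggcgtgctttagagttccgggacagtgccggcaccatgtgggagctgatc

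The 3 promoters differ in base composition, with a GC content of 59.7% for Wdr43, 80.3% for Gnl3 and 55.0% for Heatr1. The median over the factors' promoters was 59.3%, against 56.7% over array genes. Another 9 motifs were looked for on both strands after the data had been seen, which makes 10 in all. CCGGAAG was in 29.7% of the factors with an entry and 12.7% of array genes. CCGGAAGT, which contains it, was in 18.9% and 5.62%. TGCGCA was in 18.9% and 11.0%. GGGCGG was in 73.0% and 49.5%, and ATGGCG in 35.1% and 12.3%. CCAAT was in 32.4% and 41.6%, and TATAAA in 5.41% and 14.3%. TGACGTCA was in 2.70% and 2.65%, and the palindrome made of TCTCG and its reverse complement in 0% and 0.73%. Among the 12 risen factors and the 23 that did not pass, CCGGAAG was in 5 and 5, CCGGAAGT in 3 and 3, and TGCGCA in 1 and 6. GGGCGG was in 11 and 15, ATGGCG in 4 and 9, and CCAAT in 2 and 8. TATAAA and TGACGTCA were each in 0 and 1. A match is a description of the letters, and no motif was tested against the clamp difference.

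Among the RNA polymerase I subunits, 1 of 3 rose. Polr1c, a subunit shared with RNA polymerase III, ran from 5.99 over a median of 6.20 to 6.37 in clamped mice, and from 5.21 over 5.93 to 6.33 in basal mice. All 16 clamped mice lay above the basal median, and the groups overlapped. Its difference was 0.28 ± 0.08 (limma adjusted p = 0.00894), and 0.19 against the 7 late basal arrays alone (limma adjusted p = 0.124). Polr1a, the largest subunit, ran from 5.47 over 5.77 to 5.95 in clamped mice and from 4.92 over 5.54 to 5.95 in basal mice, a difference of 0.19 ± 0.09 (limma adjusted p = 0.181). Polr1b, the second-largest subunit, ran from 2.96 over 3.47 to 3.89 in clamped mice and from 3.09 over 3.54 to 3.89 in basal mice. Its difference of -0.09 ± 0.09 had the opposite sign (limma adjusted p = 0.573).

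The box C/D snoRNP, which methylates ribosomal RNA, held the largest difference of the 41. Nop58, one of its scaffold proteins, ran from 5.51 over a median of 5.98 to 6.48 in palm oil clamped mice and from 5.54 over 6.30 to 6.85 in control clamped mice. In palm oil basal mice it ran from 4.32 over 5.20 to 5.60, and in control basal mice from 4.39 over 5.22 to 5.66. Of the 16 clamped mice, 14 lay above the highest basal mouse. The difference of 0.97 ± 0.15 is 1.95-fold (limma adjusted p = 1.1e-05). Nop56, its partner in the same particle, ran from 4.43 over 4.99 to 5.64 in clamped mice and from 4.48 over 4.89 to 5.35 in basal mice, and the groups overlapped widely. Its difference was 0.13 ± 0.08 (limma adjusted p = 0.330), but 0.27 with limma adjusted p = 0.00347 when its 3 probe sets were averaged.

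The box H/ACA snoRNP, which converts uridine to pseudouridine, held both factors that fell. Dkc1, dyskerin, the pseudouridine synthase of the particle, ran from 3.07 over 3.27 to 3.60 in palm oil clamped mice and from 2.65 over 3.17 to 3.36 in control clamped mice. Its range in palm oil basal mice was from 3.14 over 3.63 to 3.73, and in control basal mice from 2.89 over 3.59 to 4.07. None of the 16 clamped mice lay above the basal median. The difference was -0.38 ± 0.09 (limma adjusted p = 0.00205). It was -0.15 with limma adjusted p = 0.305 against the 7 late basal arrays alone, and -0.60 against the other 9.

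Nhp2, another core protein of the H/ACA particle, ran from 5.49 over 5.74 to 6.29 in clamped mice and from 5.56 over 5.98 to 6.5 in basal mice. The groups overlapped, with 2 of the 16 clamped mice above the basal median. The difference was -0.26 ± 0.08 (limma adjusted p = 0.0292), and -0.14 with limma adjusted p = 0.359 without the 7 late arrays. Gar1, the third member measured, ran from 2.45 over 3.00 to 3.49 in clamped mice and from 2.06 over 2.80 to 3.06 in basal mice. Its difference was 0.18 ± 0.10 (limma adjusted p = 0.229).

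Of the 13 factors of the small subunit processome and of later small subunit maturation, 4 rose, and the differences of all 13 were above 0, with a median of 0.24. Heatr1, a processome protein needed for ribosomal RNA transcription in human cells, ran from 5.03 over a median of 5.18 to 5.62 in palm oil clamped mice and from 4.81 over 5.12 to 5.74 in control clamped mice. Among palm oil basal mice it ran from 3.94 over 4.53 to 4.99, and in control basal mice from 4.29 over 4.57 to 4.80. Within each gavage every clamped mouse lay above every basal mouse, and across gavages 14 of 16 did. The difference of 0.65 ± 0.10 is 1.57-fold (limma adjusted p = 7.4e-06).

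Wdr75, which works in the same early complex in human cells, ran from 4.92 over 5.24 to 5.42 in palm oil clamped mice and from 4.89 over 5.24 to 5.70 in control clamped mice. In palm oil basal mice it ran from 4.20 over 4.58 to 5.09, and in control basal mice from 4.24 over 4.88 to 5.22. Of the clamped mice, 11 lay above the highest basal mouse, and the difference was 0.57 ± 0.10 (limma adjusted p = 7.7e-05). Nop14, a processome protein known from yeast and human cells, ran from 5.10 over 5.31 to 5.45 in palm oil clamped mice and from 5.0 over 5.63 to 5.81 in control clamped mice. Its range in palm oil basal mice was from 4.15 over 4.83 to 5.40, and in control basal mice from 4.61 over 4.96 to 5.32. All 16 clamped mice lay above the basal median, and the difference was 0.52 ± 0.09 (limma adjusted p = 8.4e-05).

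Wdr43, the fourth to rise, differed by 0.25 ± 0.08 (limma adjusted p = 0.0208). It did not pass in 6 of 48 alternatives, among them array weights (limma adjusted p = 0.0587) and the fit without the 7 late arrays, with 0.18 (limma adjusted p = 0.217). Nob1, the endonuclease that makes the final cut of the small subunit RNA, differed by 0.33 ± 0.12 and stayed just outside the threshold (limma adjusted p = 0.0503). The other 8, Bysl, Rrp9, Ddx10, Pno1, Rrp12, Utp20, Imp4 and Noc4l, lay between 0.05 and 0.27.

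Of 13 factors of large subunit assembly and export, 4 rose and 8 differences were above 0, with a median of 0.14. Rrs1, which in yeast helps place the small 5S particle, ran from 4.60 over 5.15 to 5.37 in palm oil clamped mice and from 4.85 over 5.08 to 5.46 in control clamped mice. Among palm oil basal mice it ran from 4.19 over 4.58 to 5.16, and in control basal mice from 4.29 over 4.59 to 5.29. All clamped mice lay above the basal median, with a difference of 0.46 ± 0.10 (limma adjusted p = 0.00117). Without the 12 arrays over 6 in acinar markers it was 0.30 (limma adjusted p = 0.0918). Nop16 ran from 6.35 over 6.71 to 7.17 in clamped mice and from 6.11 over 6.5 to 6.84 in basal mice, a difference of 0.23 ± 0.07 (limma adjusted p = 0.0262). It was 0.08 without the 12 acinar-high arrays (limma adjusted p = 0.727), and did not pass in 8 of 48 alternatives. Nip7 ran from 4.71 over 5.08 to 5.51 in clamped mice and from 4.49 over 4.88 to 5.18 in basal mice, a difference of 0.22 ± 0.08 (limma adjusted p = 0.0429), which did not pass in 25 of 48 alternatives. Both overlapped widely between the groups. Noc3l differed by 0.34 ± 0.12 (limma adjusted p = 0.0438), and by 0.06 with limma adjusted p = 0.806 without the 7 late arrays.

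Pes1, Bop1 and Wdr12, which form 1 complex needed for large subunit RNA processing, differed by 0.14 ± 0.07, -0.04 ± 0.06 and -0.12 ± 0.06, and none passed the test. Nmd3, the export adapter of the large subunit, differed by -0.05 ± 0.06. Nop2, an RNA methyltransferase, differed by 0.16 ± 0.07 (limma adjusted p = 0.151). The differences of Noc2l, Ftsj3, Rrp1b and Grwd1 lay between -0.04 and 0.18.

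Of the 7 nucleolar chaperones and regulators, 4 rose and all 7 differences were above 0, with a median of 0.35. Gnl3, nucleostemin, a nucleolar GTPase, ran from 6.38 over a median of 6.83 to 7.25 in palm oil clamped mice and from 6.79 over 6.95 to 7.16 in control clamped mice. In palm oil basal mice it ran from 5.94 over 6.33 to 6.69, and in control basal mice from 5.99 over 6.39 to 6.71. All control clamped mice lay above all control basal mice, as did 7 of 9 palm oil clamped mice above all palm oil basal mice. The difference of 0.53 ± 0.08 is 1.44-fold and had the smallest p of the 41 (limma adjusted p = 5.7e-06).

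Npm1, nucleophosmin, a histone and ribosome chaperone, ran from 8.55 over 8.72 to 8.96 in palm oil clamped mice and from 8.64 over 8.75 to 8.85 in control clamped mice. Its range in palm oil basal mice was from 7.09 over 8.65 to 8.88, and in control basal mice from 7.37 over 7.95 to 8.86. The clamped mice were close together and the basal mice spread widely, with the low values in the 7 late basal arrays. The difference of 0.49 ± 0.14 (limma adjusted p = 0.0129) was 0.04 without those arrays (limma adjusted p = 0.827) and 1.04 against them alone. Npm1 and ribosomal protein genes have many processed copies in the genome, which probes may share.

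Ddx21, an RNA helicase that binds ribosomal and other nuclear RNA, ran from 6.22 over 6.49 to 6.94 in clamped mice and from 5.64 over 6.15 to 6.59 in basal mice, and all 16 clamped mice lay above the basal median. Its difference was 0.35 ± 0.08 (limma adjusted p = 0.00227), and 0.21 against the 7 late basal arrays alone (limma adjusted p = 0.152). Nolc1, a chaperone of snoRNPs, differed by 0.36 ± 0.10 (limma adjusted p = 0.0144). Without the 7 late arrays it differed by 0.23 (limma adjusted p = 0.257), as it did without the 12 acinar-high arrays (limma adjusted p = 0.368). Ncl (nucleolin), Mybbp1a and Lyar lay between 0.06 and 0.17, and did not pass the test.

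**Figure D2:**
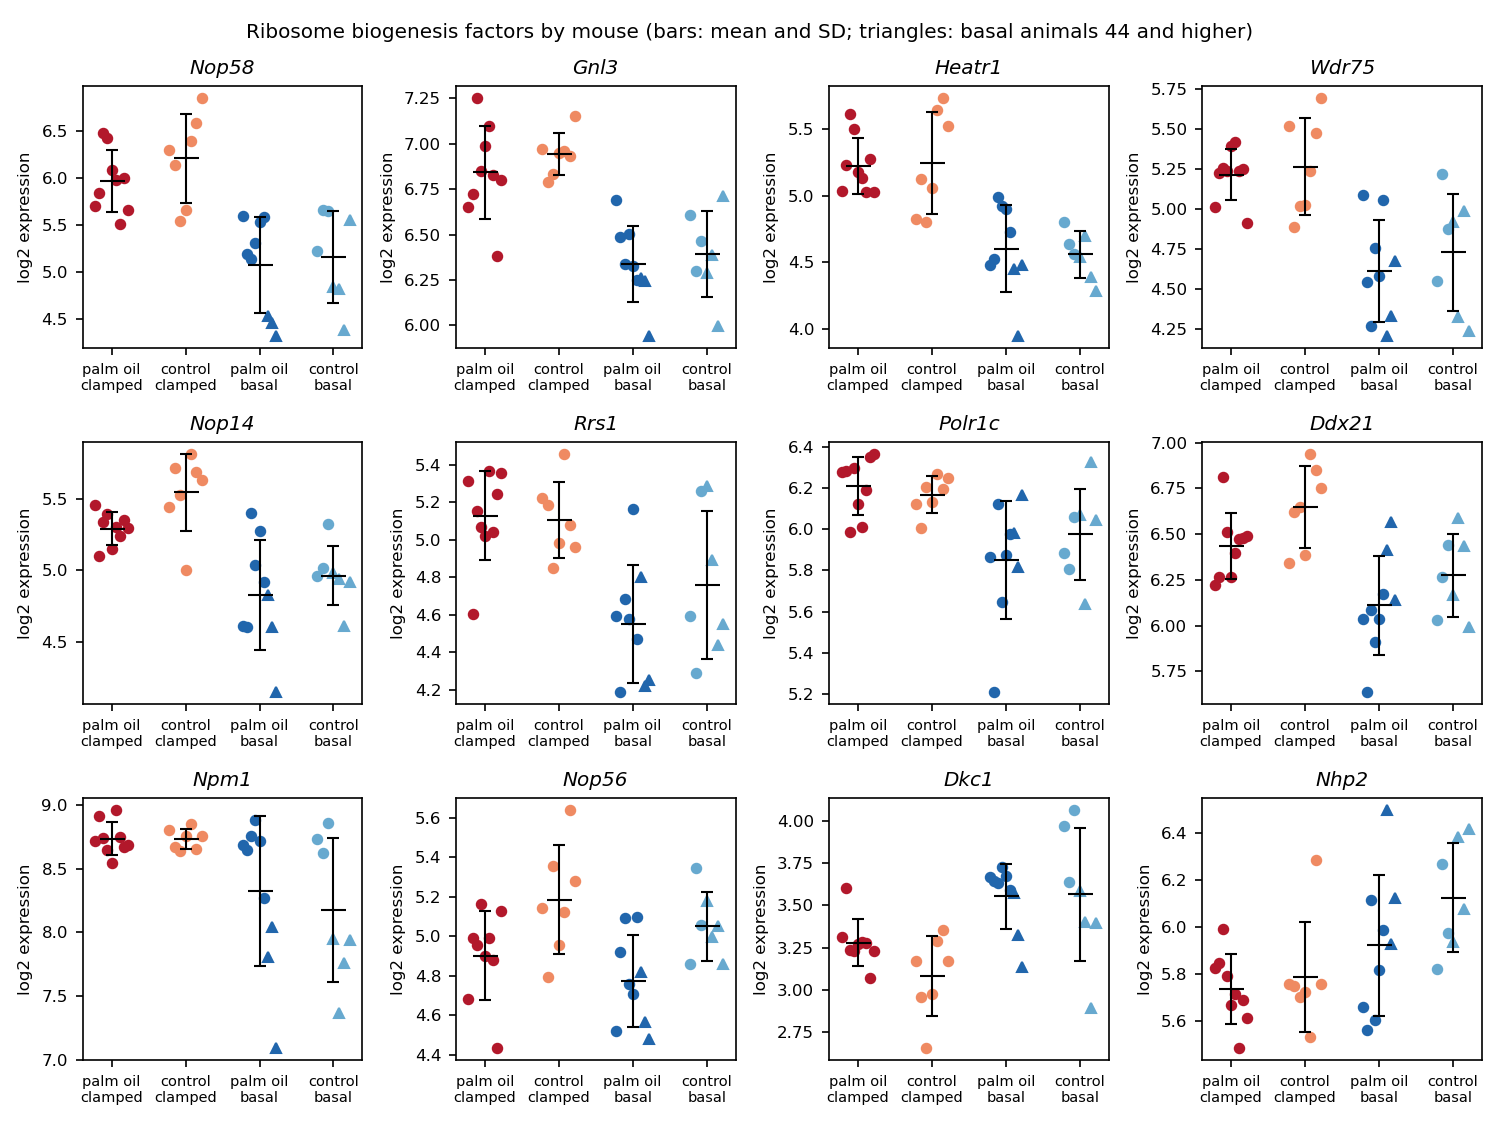
Log2 expression (vertical axes, each panel its own range) of 12 factors in each mouse, in palm oil clamped, control clamped, palm oil basal and control basal mice, with mean and SD as bars. Triangles are the 7 late basal arrays, which hold the lowest values of Nop58 (4.32) and Npm1 (7.09).

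The arrays that stood apart touch these results. The mean of the 41 factors per mouse was 4.94 to 5.21 in palm oil clamped mice, 4.97 to 5.35 in control clamped mice, 4.68 to 4.98 in palm oil basal mice and 4.77 to 5.07 in control basal mice. Without the 7 late basal arrays 8 factors rose and 1 fell, where 4.66% of all genes rose and 7.76% fell. The median difference of the 41 factors was then 0.11, beside 0.01 over all genes. Against those 7 basal arrays alone it was 0.27, beside -0.05 over all genes. With the acinar level as a term 8 rose and 1 fell (5.10% of all genes rose), and without the 12 arrays over 6 in acinar markers 7 rose and 1 fell (4.08%). Nop58, Nop14, Wdr75, Heatr1 and Gnl3 passed in each of these and in all other alternatives of this comparison, 48 in all. Their differences without the 7 late arrays were 0.63, 0.38, 0.44, 0.52 and 0.45.

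**Figure D3:**
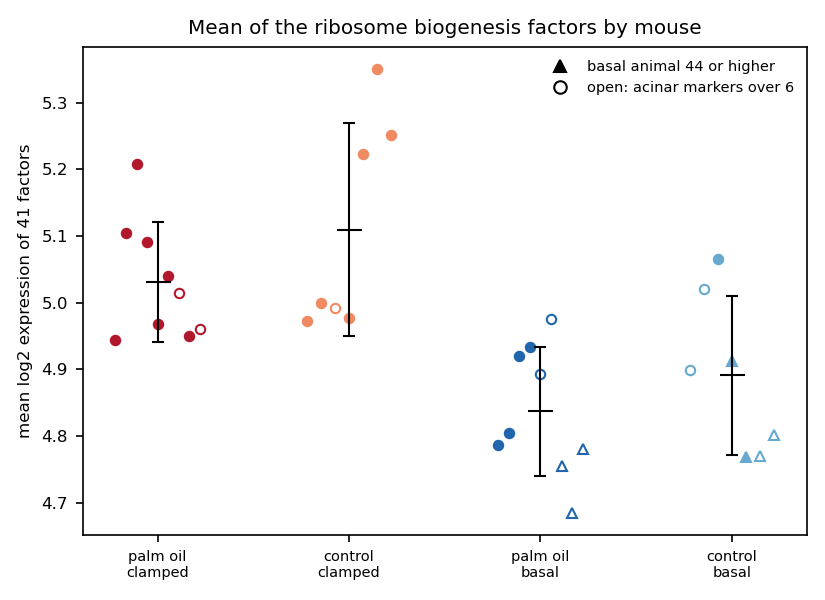
Mean log2 expression of the 41 factors (vertical axis) in each mouse of the 4 groups, with group mean and SD as bars. Triangles, the 7 late basal arrays, lie between 4.68 and 4.91, and open symbols are arrays whose acinar markers averaged over 6.

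Markers of other cells moved with the clamp as well. Beyond the fits with the acinar level and without the acinar-high arrays, their part in the results was not tested. Of 10 acinar markers, 9 fell, with a median difference of -3.06, and their mean per array lay between 1.75 and 7.03 in palm oil clamped mice, 1.71 and 8.07 in control clamped mice, 1.83 and 8.99 in palm oil basal mice, and 2.30 and 8.40 in control basal mice. Of 12 neutrophil markers 6 rose, with S100a8 at 3.71 ± 0.24, and the mean per array was 2.63 to 3.19 in palm oil clamped mice, 2.50 to 3.20 in control clamped mice, 1.72 to 2.02 in palm oil basal mice and 1.68 to 2.30 in control basal mice. The neutrophil granule genes Camp, Ngp, Ltf and Elane lay below 2 in every array. Of 11 Kupffer cell and macrophage markers 4 rose, of 10 hepatocyte markers 5 rose, and of 9 genes of proliferating cells 0 rose or fell. Beside these marker lists, 8.39% of all genes rose and 8.46% fell. Of the 11159 genes at least as bright as the dimmest factor, 1781 rose and 1671 fell.

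In control mice alone, 7 factors rose with the clamp and 1 fell, where 4.66% of all genes rose and 4.09% fell. In palm oil mice alone, 7 rose and 0 fell, where 3.76% rose and 3.80% fell. Of the 11159 genes at least as bright as the dimmest factor, 1003 rose and 832 fell in control mice. In palm oil mice 804 of these brighter genes rose and 777 fell. Nop58, Nop14, Wdr75, Heatr1 and Gnl3 were among the 7 in both, which is 71.43% of each list. The like share over all genes that rose was not counted, so this overlap has no background beside it. Polr1c and Rrs1 passed in palm oil mice, and Bysl and Nop2 in control mice. Nop58 differed by 0.89 ± 0.20 in palm oil mice (limma adjusted p = 0.00305) and 1.04 ± 0.23 in control mice (limma adjusted p = 0.0021). Every clamped mouse lay above every basal mouse for Heatr1 in palm oil mice (0.866% of all genes) and for Heatr1 and Gnl3 in control mice (1.39%). Without the 7 late basal arrays 1 of the 41 rose in control mice, near the 1.79% of all genes that did. There 4 rose without control basal replicate 7 (3.89% of all genes) and 4 without control clamped replicate 7 (3.77%). Bysl, Nop2 and Wdr75 did not pass in 15, 18 and 10 of 50 alternatives in control mice.

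The next question was whether palm oil altered these genes before or under insulin. No factor passed the test in basal mice, in clamped mice, over both, or in the interaction, and 0% of the 22180 genes did in each. Exact rank sum tests in basal and in clamped mice called 0 factors. With 9 and 7 mice their smallest possible p passes adjustment only when many genes reach it, so they add little. At an unadjusted p under 0.05 there were 2 factors in basal mice (5.11% of all genes), 4 in clamped mice (3.52%), 5 over both (4.69%) and 2 in the interaction (3.49%). The median difference of the 41 was -0.05 in clamped mice and -0.06 in basal mice, with 30 of 41 below 0 in each, where 50.43% and 51.03% of all genes were above 0. The 95% intervals were set against a bound of 1.5-fold either way, chosen after the data were seen. They lay within it for 41 factors in basal mice and for 38 in clamped mice, where Nop58, Rrp9 and Bysl reached beyond it. For the interaction 30 intervals lay within the bound and 11 reached beyond it, so that it is less well bounded.

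**Figure D4:**
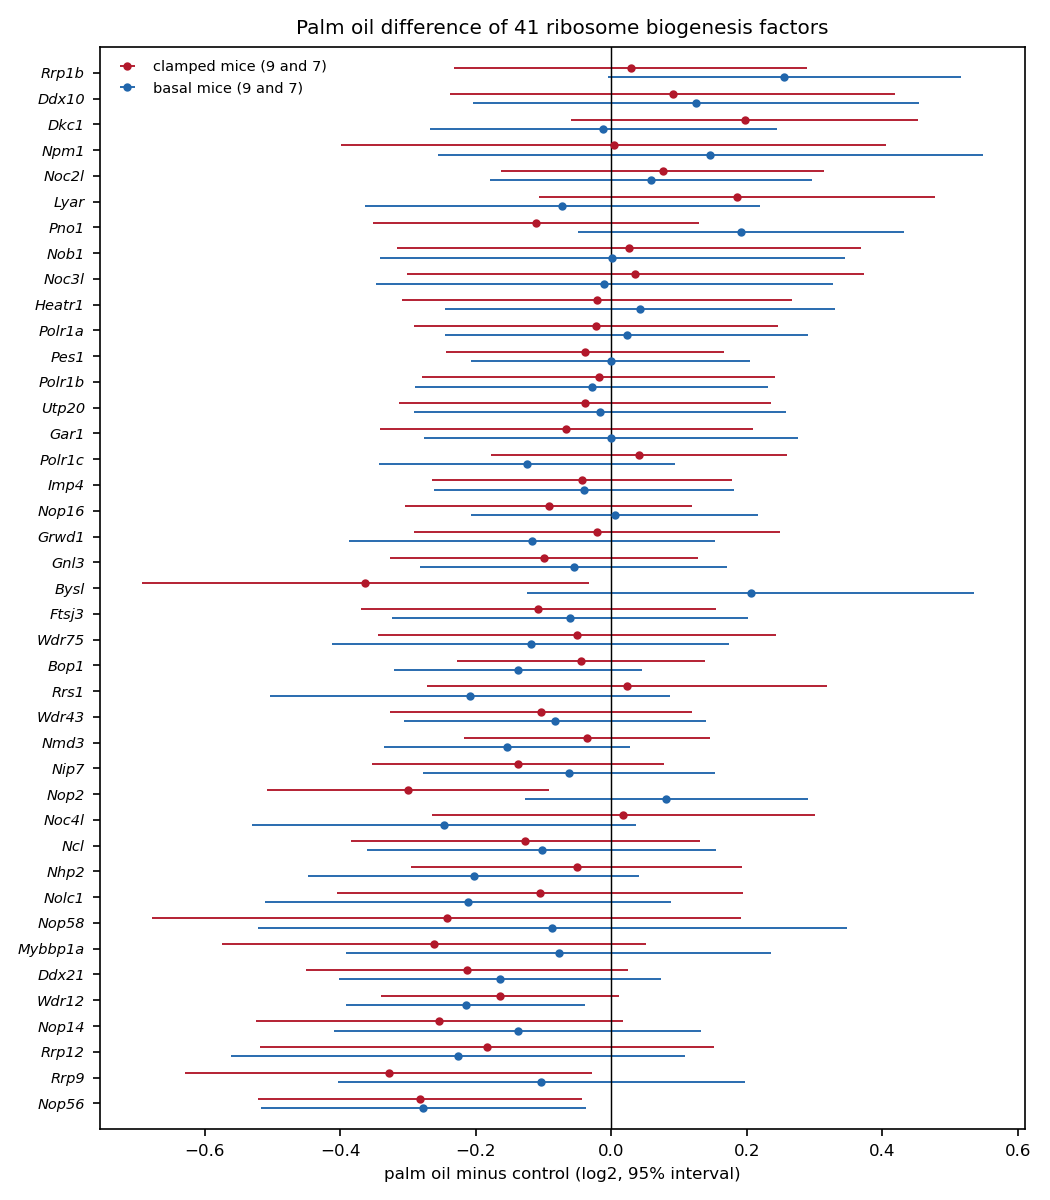
Difference between palm oil and control mice of each of the 41 factors (points, log2) with its 95% interval (bars), in clamped mice (red) and basal mice (blue), ordered by the mean of both. No factor passed the test, and 30 of 41 points lie below 0 in each.

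Nop56 had the smallest p of the factors over both states. It ran from 4.43 over 4.96 to 5.16 in palm oil clamped mice, against 4.79 over 5.14 to 5.64 in control clamped mice. Among palm oil basal mice it ran from 4.48 over 4.76 to 5.10, against 4.86 over 5.05 to 5.35 in control basal mice. The palm oil mice lay lower in both states with wide overlap, and the mean difference was -0.28 ± 0.08 (limma adjusted p = 0.999). With its 3 probe sets averaged it was -0.10 (limma adjusted p = 0.998). Wdr12 differed by -0.19 ± 0.06 and Ddx21 by -0.19 ± 0.08 over both (limma adjusted p = 0.999 for each).

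In basal mice Wdr12 differed by -0.22 ± 0.09, Nop56 by -0.28 ± 0.12 and Rrp1b by 0.26 ± 0.13, none past the test. In clamped mice Nop2 differed by -0.30 ± 0.10, Nop56 by -0.28 ± 0.12 and Bysl by -0.36 ± 0.16. Bysl, needed for small subunit maturation, and Nop2 also had the smallest p in the interaction, with -0.57 ± 0.23 and -0.38 ± 0.15, followed by Pno1 with -0.30 ± 0.17 (limma adjusted p = 1.0 for all 3). For Bysl the clamp difference was -0.01 ± 0.15 in palm oil mice and 0.56 ± 0.17 in control mice, and for Nop2 -0.03 ± 0.10 in palm oil mice and 0.35 ± 0.11 in control mice.

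Other genes of ribosome production give the setting. Beside each list below, 8.39% of all genes rose and 8.46% fell. Of the 11159 genes at least as bright as the dimmest factor, 1781 rose and 1671 fell. Of 97 further biogenesis factors 26 rose and 3 fell in clamped against basal mice, with a median of 0.10, among them Nol8 (0.72 ± 0.12), Brix1 of large subunit assembly (0.61 ± 0.12) and the box C/D assembly factor Znhit6 (-0.50 ± 0.08). Of 17 further genes of RNA polymerase I transcription 3 rose and 1 fell. Rrn3, which brings the polymerase to its promoter, rose by 0.27 ± 0.09, and the subunit gene Znrd1 by 0.45 ± 0.07. Ubtf, the factor that opens ribosomal DNA, differed by -0.07 ± 0.08 (limma adjusted p = 0.680). Of 61 cytosolic ribosomal protein genes 12 rose and 1 fell, with a median of 0.08. Rpl4 differed by 0.42 ± 0.09, Rps28 by 0.27 ± 0.06 and Rps13 by 1.00 ± 0.22. In control mice alone 6 of the 61 rose (4.66% of all genes), and in palm oil mice alone 0 did (3.76%). Of the 11159 brighter genes, 1003 rose in control mice alone and 804 in palm oil mice alone.

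Of 33 mitochondrial ribosome biogenesis genes 4 rose and 10 fell, with a median of -0.10. Ddx28, a helicase of the mitochondrial ribosome, rose by 0.89 ± 0.11, and Rbfa and Mterf4 fell by 0.50 and 0.48. Of 20 genes of RNA polymerase III, which makes 5S and transfer RNA, 2 rose (Polr3d and Bdp1) and 1 fell. Of 17 genes of purine and pyrimidine synthesis 3 rose and 5 fell. Umps, of pyrimidine synthesis, fell by 0.61, and Ppat, which starts purine synthesis, rose by 0.42 ± 0.09.

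**Figure D5:**
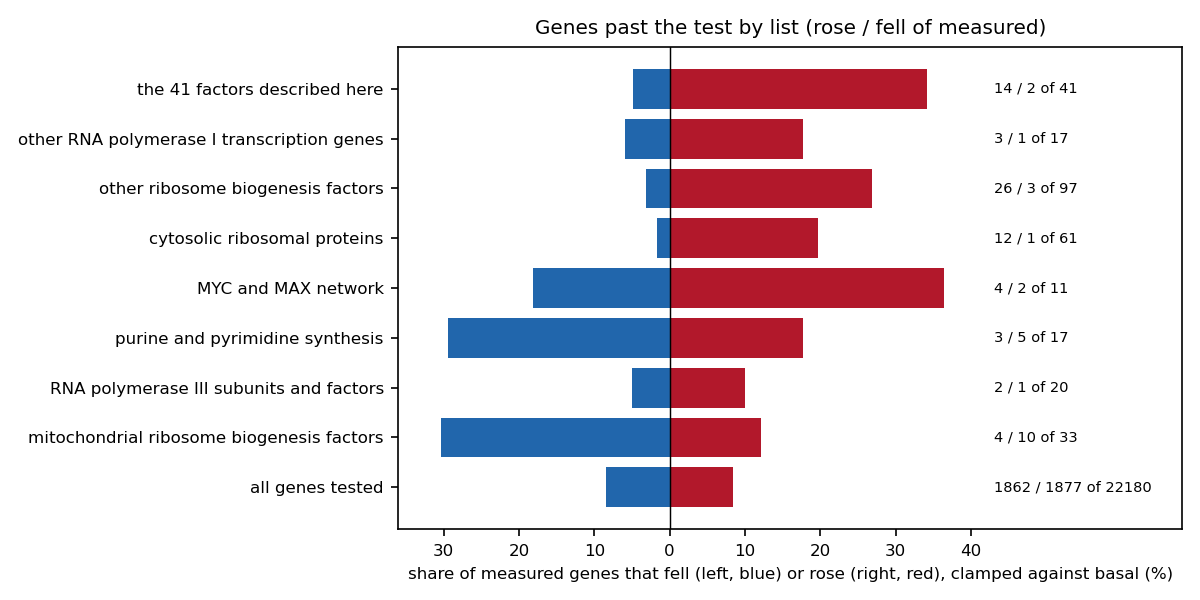
Share of the measured genes of each list that rose (red, right) or fell (blue, left) in clamped against basal mice, in percent, with the counts at the right. The 41 factors (14 rose, 2 fell) stand at the top and all genes tested (8.39% rose, 8.46% fell) at the bottom.

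Of 11 genes of the MYC and MAX network 4 rose and 2 fell. Max, the partner of MYC, rose by 0.47 ± 0.07, and its other partners Mxd1 and Mnt, known as repressors, rose by 0.79 ± 0.12 and 0.54 ± 0.10. Myc ran from 2.75 over 3.39 to 3.86 in palm oil clamped mice and from 2.18 over 3.10 to 3.75 in control clamped mice. In palm oil basal mice it ran from 2.59 over 3.02 to 3.31, and in control basal mice from 3.23 over 3.44 to 4.33. The control basal mice held the highest single value and overlapped the other groups. Over both gavages its clamp difference was -0.14 ± 0.13 (limma adjusted p = 0.528), with 0.33 ± 0.17 in palm oil mice (limma adjusted p = 0.300) and -0.61 ± 0.19 in control mice (limma adjusted p = 0.0379). The interaction of 0.94 ± 0.26 did not pass over all genes (limma adjusted p = 1.0).

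Some of these genes also carry small nucleolar RNAs in their introns, which was looked at after the data were seen. Of the 41 factors, 6 (14.6%) enclose 18 snoRNA genes in RefSeq, against 1.75% of protein-coding genes on the array. The hosts are Nop58, Wdr43 and Gnl3, which rose, Dkc1, which fell, and Nop56 and Ncl, which did not pass. Probe sets existed for 9 of the snoRNAs. Snord11, within Nop58, differed by 0.64 ± 0.20 (limma adjusted p = 0.0240), and Snord70, within the same gene, by -0.11 ± 0.24 (limma adjusted p = 0.820). Snord82, within Ncl, differed by 0.57 ± 0.18 (limma adjusted p = 0.0237), where Ncl itself differed by 0.06 ± 0.09. The other 6 did not pass. A probe within an intron reads the snoRNA and the unspliced host RNA alike.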

How the data were processed

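Liver RNA of 32 mice was hybridised to 1 array each. Per the submitters' processing notes, the authors ran RMA (Expression Console 1.3.0.187), and its deposited log2 values were used unchanged. In RMA the background is corrected, arrays are normalized to each other, and low values are compressed. The 41345 probe sets comprised 23521 with 1 symbol in the platform annotation, 1814 with several symbols and 16010 unlisted. The brightest probe set stood for each of 1082 genes with several, and 22180 genes remained.

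The factors, their roles, the side lists and the marker lists were chosen with earlier results of these data known. Groups came from the titles. Differences were tested in limma 3.58.1 under R 4.3.3, by lmFit and eBayes with 1 mean per group over all 32 arrays (28 residual degrees of freedom), and Benjamini-Hochberg adjustment over all genes of a contrast. Genes named were the 3 factors of each role with the smallest p in the clamp comparison, every factor that fell, the 3 with the smallest p in each palm oil contrast, and up to 3 called genes of each side list, with Myc, Rrn3 and Ubtf. Other names were chosen after their values were seen. The functions were tested on simulated data. Alternatives are the mean of probe sets, brighter genes only, array scaling, variance priors, array weights, the replicate block, the animal number, the arrays that stood apart, the acinar level, the compared groups alone, a threshold of 0.1, an exact rank sum test, every probe set, and each array left out in turn. The number of arrays limits the precision.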

Additional observations from a re-analysis of the deposited data

Results flagged for a closer look

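In 5 of 72 groups of values examined (17 factors and their mean, in 4 groups of mice) 1 mouse lay far from the others by Dixon's criterion, and chance alone flags about 1 in 20. Dkc1 was 3.60 in palm oil clamped replicate 2, with the next mouse at 3.31. Rrs1 was 4.60 in the same mouse, the lowest of its group, with the next at 5.02. Ddx21 was 6.81 in palm oil clamped replicate 3, with the next at 6.51. Nhp2 was 6.29 in control clamped replicate 6, with the next at 5.76. Gar1 was 2.06 in control basal replicate 5, with the next at 2.78.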

How the results depend on the processing

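No called clamp difference of a factor changed sign under any alternative run. The side-list genes were not run. In clamped against basal mice over both gavages 14 factors rose and 2 fell. Without the 7 late basal arrays 8 rose and 1 fell (4.66% and 7.76% of all genes). With the acinar level as a term it was 8 and 1 (5.1% and 6.36%). It was 7 and 1 without the arrays over 6 in acinar markers, and 1 fell with equal array medians (5.92% of all genes fell). With array weights 10 rose (7.64% of all genes), without Wdr43, Nop16, Noc3l, Nip7 and Npm1 but with a factor from outside the 14. With quantile normalization repeated 11 rose (8.17%), without Wdr43, Nop16 and Nip7. After the data were seen, 2 alternatives were added: without the 9 basal arrays under 44 (1 fell, and 10.5% of all genes), and the split and the acinar level together (9 rose, 1 fell). In control mice, where 7 rose and 1 fell, 1 rose without the 7 arrays (1.79% of all genes), 4 with array weights (3.80%), 4 with the acinar level (3.03%), 4 rose and 0 fell with the compared groups alone (3.21% of all genes rose), 3 and 0 by the exact rank sum test (2.66%), and 0 fell without the 9. In palm oil mice, where 7 rose and 0 fell, 1 fell without the 7 arrays (3.43% of all genes) and with the acinar level (3.07%). There 2 rose without the acinar arrays (1.31%). The causes were not tested. Leaving out 1 array each gave 11 to 15 rises and 1 to 2 falls over both gavages, 4 to 9 and 0 to 2 in control mice, and 7 to 8 and 0 in palm oil mice. Nhp2 was lost without control basal replicate 5 or 7 or control clamped replicate 5, Dkc1 in control mice without control clamped replicate 3, Nop16 without control basal or control clamped replicate 6 (0.20 each), Wdr75 within the control gavage (0.45 to 0.47) when basal replicate 5, basal replicate 7 or clamped replicate 7 of that gavage was left out, Nip7 without any one of 17 arrays, and Noc3l without any one of 15. A second fall in control mice passed without control clamped replicate 6. Bysl in control mice was lost without any one of 7 arrays (0.44 to 0.55), and Nop2 without any one of 8 (0.30 to 0.34). Every palm oil contrast and the interaction kept 0 calls. With probe sets averaged the palm oil difference of Nop56 was -0.16 in clamped and -0.04 in basal mice. With the 7 late arrays as the only basal arrays, that of Ddx21 over both states was -0.07, and of Wdr12 -0.12. With the replicate number as a block 13 factors rose and 2 fell (8.35% and 8.41% of all genes). In control mice it was 8 and 1 (4.61% and 4.06%), and in palm oil mice 8 and 0 (3.73% and 3.61%). Same-numbered mice correlated between -0.363 and 0.36, with medians per pair of groups between -0.0623 and 0.0882. No common pairing was seen, and whether some same-numbered mice were handled together was not tested. Dim genes are compressed towards the background, and a 95% interval for them does not bound the change in RNA.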
